A study of Homo sapiens with 9 samples.

Results

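The response of BL2 cells to CD40L was measured by setting 3 arrays of cells treated for 6 hrs with recombinant human CD40L (rhCD40L) against 3 arrays of untreated control cells, 6 of the 9 arrays used here. The arrays were chosen by their labels alone, and every probe set except the AFFX controls was included. The established human line BL2 derives from a Burkitt lymphoma and stands in the study for transformed B cells of the germinal centre. The cells grew in RPMI with 10% FCS, and the labels name no difference between the groups besides the stimulus and its time. The control label gives no time, so the labels do not state whether the controls were cultured for the same 6 hrs. The replicates are numbered 1 to 3 and are called batches here, and each batch gave 1 control and 1 CD40L array, so that a difference can be taken within each batch. The other 3 arrays, of cells treated for 6 hrs with LPS, a cell wall component of Gram-negative bacteria, shared the same control arrays and served for the common estimate of the spread and for a direct contrast of both stimuli. As 1 line of tumour cells was used, the values describe this line.

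Helper T cells carry CD40L and through it engage CD40 on B cells. CD40 has no enzymatic activity of its own and acts through TRAF adaptors. These lead to the canonical branch of NF-κB, in which IκB inhibitors are degraded, and to the noncanonical branch, in which the kinase NIK (MAP3K14) accumulates and the precursor encoded by NFKB2 is processed to the partner of RELB. In germinal centres this signal supports the survival of B cells, their presentation of antigen and the decision whether to stay, to become memory cells or to become plasma cells.

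HG-U133 Plus 2.0 arrays were used, and levels are the deposited values on a generalised log2 scale, which flattens differences between dim probe sets. Array medians lay between 6.44 and 6.46, and replicates of a group correlated at 0.994 to 0.997 across probe sets. Changes are log2 fold changes of CD40L minus control from limma with the batch as a term, with standard errors, and p-values are limma's, two-sided and adjusted over all 54613 probe sets after Benjamini and Hochberg. A change passed at an adjusted p of at most 0.05. Errors of levels are SDs (n = 3 arrays). A gene of a list is represented by its brightest probe set. B cell markers were present: MS4A1, CD79A, CD79B, CD22, PAX5 and BLK all had a level above 8 on every array. Of 12 markers of T and NK cells, LCK had a mean control level above 8, and the log2 of their summed levels was 12.19 to 12.28 on the control and 12.06 to 12.15 on the CD40L arrays. The 8 markers of monocytes and macrophages lay between 5.77 and 6.73 and the 8 of fibroblasts between 5.64 and 8.06. No marker of these 3 lists passed limma's test, although LCK passed after quantile normalization (−0.20, adjusted p = 0.0366), and at an unadjusted p under 0.05 the T and NK list had 3, the fibroblast list 2 and the monocyte list 0 markers. With 3 arrays a group, precision is limited by their number, and fewer cells of a kind and less RNA per cell cannot be told apart in such cultures.

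After CD40L, 2027 probe sets were higher, 3.71% of those tested, and 1022 were lower, 1.87%. Counted by the brightest probe set of each of 19775 genes, 995 genes (5.03%) were higher and 578 (2.92%) were lower, and the median change of all genes was 0.005. Most changes were modest, as 168 of the higher and 92 of the lower probe sets changed at least 1.5-fold. The share called rose with the level. With the probe sets ordered by level and cut into 5 classes of equal size, 12.9% of the brightest class were higher and 5.18% lower, against 0.0275% and 0.0366% of the dimmest class. The 3 CD40L arrays lay above or below all 3 control arrays for 79.1% of the higher and 92.8% of the lower probe sets, against 9.09% above and 7.27% below over all probe sets. Batches differed in size. Over the probe sets called higher the median difference was 0.281, 0.449 and 0.229 in batches 1, 2 and 3, and over those called lower it was −0.336, −0.294 and −0.365. Of all calls, 66.5% were higher. This share was 48% without batch 2, 50.7% without the CD40L array of batch 2, 52.9% without the control array of batch 2 and 50.2% after quantile normalization, so the excess of rises over falls was seen with batch 2 in the fit and on the deposited scaling. Without the batch term 884 probe sets were higher and 562 lower.

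The 15 genes with the largest rise were led by LINC00158, a long noncoding RNA, CD58, the ligand of CD2 on T cells, and ELL2, which helps RNA polymerase II to elongate. On the control arrays of batches 1, 2 and 3, CD58 had levels of 8.63, 8.31 and 8.39, and on the CD40L arrays 9.93, 10.20 and 10.05. Every CD40L array was above every control array, and the change was 1.62 ± 0.09 (adjusted p = 3.51e-08, 3 of 5 probe sets higher). ELL2 went from 7.42, 7.45 and 7.37 to 8.71, 9.08 and 8.85, with batch differences of 1.29, 1.63 and 1.48. LINC00158 went from 6.47, 6.55 and 6.47 to 8.14, 8.38 and 8.35, also without overlap. BTN2A2, a butyrophilin that binds activated T cells, had 1.25 and DOCK10 1.20. The class II chains HLA-DPA1 and HLA-DQA1 had 1.10 and 1.09 at the probe set of largest change. Transcription factors among the rises were BATF, an AP-1 family member that pairs with IRF4, with 1.06 and the homeobox protein CUX2 with 1.09. BATF was narrow in each group, with 8.67, 8.69 and 8.72 on the control arrays and 9.69, 9.80 and 9.79 on the CD40L arrays. The other rises were those of RILPL2, which takes part in ciliary membrane traffic, with 1.12, DENND4A, an exchange factor of Rab GTPases, with 1.10, MAN1A1, a Golgi mannosidase, with 1.08, CCDC28B with 1.07, FNBP1, a membrane-bending partner of the actin machinery, with 1.04, and NEIL2, a DNA glycosylase, with 1.02. Adjusted p-values of these 15 rises reached at most 2.54e-05 in limma.

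ID1, an inhibitor of DNA binding that blocks E protein transcription factors, had the largest fall. Its level was 8.91, 9.18 and 8.97 on the control arrays and 7.03, 6.93 and 7.07 on the CD40L arrays, a 4.02-fold decrease (adjusted p = 7.98e-10 from limma). The related ID3 and ID4 fell by 0.98 and 0.84 on the log2 scale. HMCES, which shields abasic sites in DNA, went from 9.82, 10.09 and 9.96 to 8.59, 8.49 and 8.50. SMAD1, which carries BMP signals to the nucleus, fell by 1.18. DEPTOR, an inhibitor of mTOR, went from 9.86, 9.99 and 9.92 to 8.73, 8.95 and 8.61. CD83, a surface protein of activated B cells and dendritic cells, went from 10.05, 9.97 and 9.72 to 9.01, 8.88 and 8.81. The groups did not overlap for any of these genes. CAB39L, a scaffold of the kinase LKB1, fell by 1.09, IRF8, a transcription factor of germinal centre B cells, by 0.92, RGS18, which shortens G protein signals, by 0.92, and ENPP3, an ectonucleotidase, by 0.94. GPER1, a G protein coupled oestrogen receptor, fell by 0.85, and its control arrays were wide, at 7.12, 8.0 and 7.69. TMT1A, a methyltransferase, fell by 1.01, FAM167A by 0.91 and the pseudogene ANKRD36BP2 by 0.98. All 30 leading genes moved the same way in the 3 batches, by the rule that chose them, and all 30 also passed in each of 9 further fits, of which 3 left out a batch, 3 a CD40L array and 3 a control array. These fits reuse the arrays from which the genes were chosen as the largest changes, so they are no independent support. Each leading gene was measured at its probe set of largest change, not at the brightest one used for the lists. The gene lists below held 268 called genes, and 149 of these calls were kept in all 9 fits. The counts of each list stand beside the shares over all genes, 5.03% higher and 2.92% lower. Without batch 1, 92 of them were lost, without batch 2, 41, and without batch 3, 79. Without a single CD40L array 55 to 67 were lost, and without a single control array 28 to 45. Without the batch term 48 of the genes named here lost their call and with batch as a random effect 31. Of the named calls kept in all 9 fits, those of BTNL9, DUSP10, ID2, IKZF2, RELB, RGS3, SPIB and TAPBP were lost without the batch term (adjusted p = 0.0532 to 0.14 from limma), and those of RELB and BTNL9 also with the random effect.

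**Figure D1:**
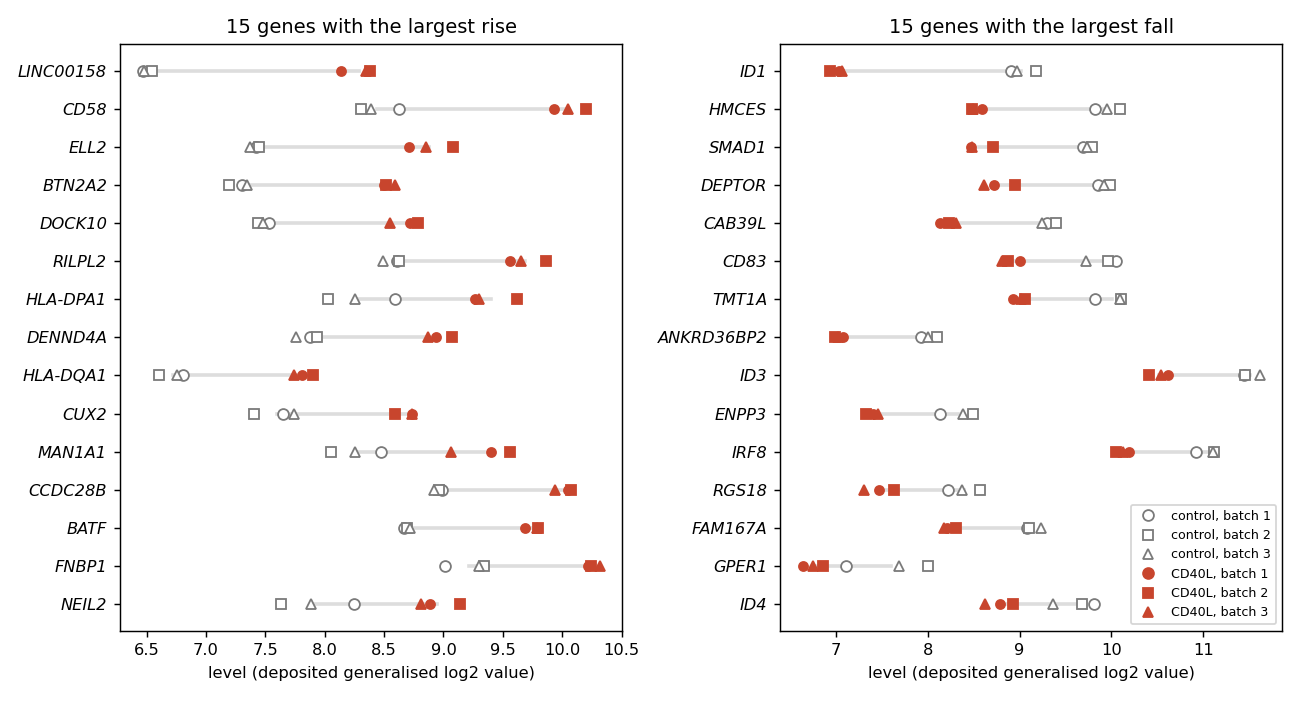
Levels on each array (generalised log2 scale) of the 15 leading rises and 15 leading falls after CD40L, with open symbols for control arrays, filled symbols for CD40L arrays and a shape for each batch; the grey line joins the group means. Within each gene the CD40L arrays lie on one side of all control arrays.

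Of the CD40 receptor with its adaptors and kinases, 37 genes, 33 were measured by a probe set of 1 gene, and 8 were higher and 2 lower, with a median change of 0.11. The receptor CD40 itself overlapped between groups, at 9.06, 8.90 and 8.90 on the control arrays and 8.85, 8.98 and 8.92 on the CD40L arrays (−0.03 ± 0.06, adjusted p = 0.891 from limma). The kinase NIK, encoded by MAP3K14, went from 6.35, 6.52 and 6.45 to 7.15, 7.13 and 6.97, without overlap. Its change was 0.64 ± 0.07 (adjusted p = 5.09e-05 from limma). IKBKE, an IκB kinase related kinase, rose by 0.72, JAK3, which can bind CD40 and serves the common γ chain of cytokine receptors, by 0.61, and TNFAIP3 (A20), a ubiquitin editor that limits NF-κB, by 0.63. TRAF5 and BIRC2, an adaptor and a ubiquitin ligase of the CD40 complex, fell by 0.23 and 0.23. The study lists BIRC3, which is also on this list, among its most altered genes after CD40L, with a rise of 0.845. A probe set with no gene name here had a rise of the same size (adjusted p = 3.77e-05 from limma). TRAF3, which holds NIK at a low level in resting cells, had 0.21 (adjusted p = 0.0781) and TRAF1, an adaptor induced by NF-κB in many cells, 0.03 (adjusted p = 0.919), and neither passed limma's test. The number of higher members was 4 without batch 1 and 5 without the CD40L array of batch 1, and the calls kept in all 9 fits that left out a batch or an array were those of IKBKE, MAP3K14, TNFAIP3 and JAK3.

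Among the NF-κB subunits and inhibitors, 4 of 10 measured genes were higher and 1 was lower, with a median change of 0.24. NFKB2, whose product p100 is the precursor of p52, went from 7.91, 7.67 and 7.48 to 8.76, 8.80 and 8.53, and each CD40L array exceeded every control array. The batch differences were 0.85, 1.12 and 1.05 and the change 1.01 ± 0.06 (adjusted p = 1.09e-07 from limma). RELB, its partner in the noncanonical branch, went from 8.88, 8.38 and 8.47 to 9.37, 9.12 and 8.81. These groups overlapped, as batch 1 lay higher on both arrays, and within batches RELB rose by 0.48, 0.73 and 0.34 (adjusted p = 0.000569 from limma). This call rests on the fixed batch term, as the adjusted p was 0.133 without it and 0.0796 with batch as a random effect. The inhibitors NFKBIE and NFKBIB rose by 0.83 and 0.32. REL, the subunit known from germinal centre B cells, fell by 0.33, from 10.43, 10.66 and 10.60 to 10.18, 10.40 and 10.13 (adjusted p = 0.00369 from limma). NFKB1, RELA and NFKBIA had differences of 0.60, 0.47 and 0.49 in batch 2. In each of these genes the differences of the other batches were smaller, and none of them passed with all arrays (adjusted p = 0.0812, 0.379 and 0.266 from limma). NFKB1 had 0.45 and passed without batch 3 and without the control array of batch 3 (adjusted p = 0.0316 and 0.00381 from limma), and NFKBIA had 0.32 and passed without the control array of batch 1 (adjusted p = 0.0292). The calls of NFKBIB and REL were lost without batch 1 and without batch 3, respectively, and that of REL also without the batch term or with it as a random effect (adjusted p = 0.11 and 0.0677 from limma).

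A list of 51 known NF-κB target genes, which includes some of the genes above, had 16 higher and 3 lower of 48 measured genes and a median change of 0.13. ICAM1, the adhesion ligand of LFA-1, went from 7.83, 7.48 and 7.42 to 8.76, 8.57 and 8.39 (1.00 ± 0.06, adjusted p = 1.34e-07 from limma). The groups did not overlap, and all 3 probe sets of ICAM1 were higher. FAS, the death receptor CD95, went from 6.82, 6.61 and 6.75 to 7.50, 7.46 and 7.58. CFLAR, which encodes the FLIP protein that blocks caspase-8 at death receptors, went from 8.60, 8.50 and 8.48 to 9.06, 9.48 and 9.25. Both were apart from their controls on every array. BCL2A1, an antiapoptotic BCL2 relative, rose by 0.42 and PLEK, a substrate of protein kinase C, by 0.58. The chemokine CCL17 had 0.30 (adjusted p = 0.0275 from limma) and CCL22 0.11 (adjusted p = 0.427). In the other direction CD83 fell by 1.02, IER3, an immediate early gene, by 0.41 and IL2RA, the α chain of the IL2 receptor, by 0.24. Of the 19 calls 12 were kept in all 9 fits that left out a batch or an array. Among the others were those of CCL17, IER3 and IL2RA, and the number of lower members was 1 without batch 1 or the CD40L array of batch 1.

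**Figure D2:**
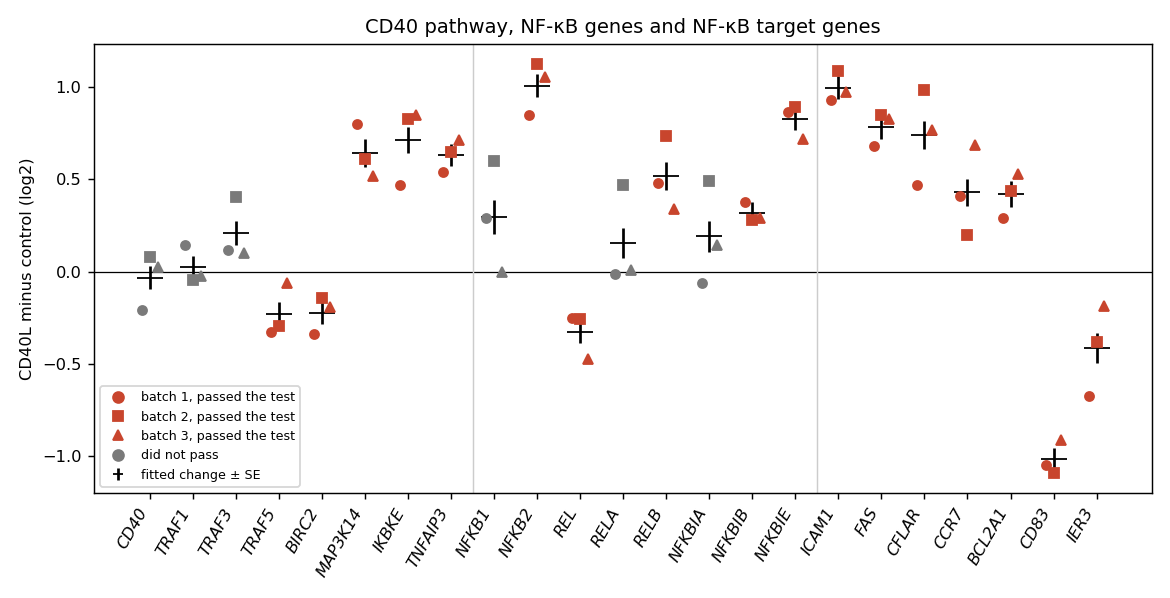
Difference between the CD40L and the control array within each batch (log2, shapes mark batches) and the fitted change ± standard error (black) for genes of the CD40 pathway, NF-κB subunits and inhibitors, and NF-κB target genes, in 3 panels from left to right. NFKB2, ICAM1 and NFKBIE lie above 0.7 in all batches, CD83 lies below −0.9, and CD40 and TRAF1 lie around 0.

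As NF-κB factors bind promoters, the 250 bases before the start of each gene (RefSeq, GRCh38.p14) were searched on both strands for the κB consensus motif, a 10-letter motif given here by its name. A promoter was found for 838 of the higher and 466 of the lower genes. The motif was in 64 promoters of higher genes (7.64%), in 23 of lower genes (4.94%), in 803 of 14080 genes that were not called (5.7%) and in 1380 of all 27305 promoters (5.05%). Of the genes on the lists of NF-κB factors and targets, 12 of 42 had it, 3 of the 13 higher ones among them. REL and IL2RA, which fell, also have it. For comparison, the interferon response motif (ISRE, also given by its name) was in 3.58% of promoters of higher, 2.36% of lower and 2.41% of uncalled genes, and the STAT motif TTCNNNGAA in 5.49%, 6.01% and 6.07%. Motifs were counted wherever they occurred, overlaps included, and a match or its absence in this window says nothing of binding. The stretches of 4 risen genes are shown because each holds the κB motif, in capitals, and the genes stand for separate roles: the NF-κB inhibitor TNFAIP3 (chr6:137867009-137867258, plus strand), the death receptor inhibitor CFLAR (chr2:201118466-201118715, plus strand), the peptide transporter TAP1 (chr6:32853705-32853954, minus strand) and the RNA sensor IFIH1 (chr2:162318685-162318934, minus strand). They were chosen after the matches were seen.
TNFAIP3: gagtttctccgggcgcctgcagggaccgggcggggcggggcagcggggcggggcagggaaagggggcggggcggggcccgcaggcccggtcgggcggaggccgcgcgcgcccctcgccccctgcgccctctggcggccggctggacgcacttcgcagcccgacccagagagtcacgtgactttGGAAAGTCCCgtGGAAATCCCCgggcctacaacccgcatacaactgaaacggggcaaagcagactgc
CFLAR: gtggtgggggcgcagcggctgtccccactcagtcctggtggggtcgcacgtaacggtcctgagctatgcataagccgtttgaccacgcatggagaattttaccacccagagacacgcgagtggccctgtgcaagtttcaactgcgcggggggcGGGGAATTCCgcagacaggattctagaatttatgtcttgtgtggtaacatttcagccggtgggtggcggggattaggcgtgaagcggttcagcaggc
TAP1: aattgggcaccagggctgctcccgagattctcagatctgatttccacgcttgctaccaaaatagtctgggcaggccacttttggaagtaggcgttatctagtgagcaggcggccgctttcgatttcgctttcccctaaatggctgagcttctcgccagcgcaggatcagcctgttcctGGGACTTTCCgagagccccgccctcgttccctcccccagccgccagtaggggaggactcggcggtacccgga
IFIH1: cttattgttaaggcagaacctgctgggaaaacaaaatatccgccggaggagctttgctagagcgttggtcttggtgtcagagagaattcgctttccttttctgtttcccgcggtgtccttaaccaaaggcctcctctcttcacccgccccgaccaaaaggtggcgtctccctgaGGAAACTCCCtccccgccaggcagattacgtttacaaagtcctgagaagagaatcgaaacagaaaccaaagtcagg

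Antigen presentation held the highest shares of risen genes among the 33 lists reported here. Of 22 measured class I genes 10 were higher and 0 lower in limma (1 lower at an unadjusted p under 0.05), with a median change of 0.21. The nonclassical class I chains HLA-E and HLA-F rose by 0.84 and 0.75 and the classical chains HLA-C and HLA-B by 0.68 and 0.60. TAP1, a subunit of the peptide transporter, went from 8.15, 8.01 and 7.97 to 8.84, 8.90 and 8.75, and TAPBP, which tethers class I molecules to it, from 10.13, 9.61 and 9.60 to 10.61, 10.51 and 10.06. The groups of TAP1 were apart and those of TAPBP overlapped, while TAPBP rose by 0.48, 0.91 and 0.47 within batches (adjusted p = 0.000127 from limma). The light chain B2M, the immunoproteasome subunit PSMB9 and the transactivator NLRC5 had 0.05, −0.12 and 0.18 and did not pass (adjusted p = 0.876, 0.435 and 0.0724 from limma). The calls of CALR and TAPBPL, a chaperone and a relative of TAPBP, were lost in some of the 9 fits that left out a batch or an array. Of the class I genes 8 were higher and 0 lower after LPS, on the same control arrays. The direct contrast of both stimuli had 2 higher and 0 lower after CD40L. HLA probe sets can also detect transcripts of near-identical HLA genes, so the members of each class are not cleanly separated.

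On the class II list 13 of 27 measured genes were higher and 1 was lower, with a median change of 0.24. At their brightest probe sets the chains HLA-DQA1, HLA-DQB1 and HLA-DPA1 rose by 1.00, 0.99 and 0.41. Of the factors that act on class II promoters, CIITA and RFX5 rose. CIITA went from 6.84, 6.90 and 6.99 to 7.56, 7.73 and 7.81 and RFX5 from 11.16, 10.93 and 11.19 to 11.93, 11.85 and 11.91, both without overlap. RFXAP and RFXANK, the partners of RFX5, had −0.08 and −0.09, and the NF-Y subunits NFYA, NFYB and NFYC had 0.13, −0.11 and 0.07, and none of these 5 passed (adjusted p of at least 0.253 from limma, with 1 of 5 higher at an unadjusted p under 0.05). HLA-DMA and HLA-DMB, which exchange peptides on class II molecules, rose by 0.50 and 0.75. HLA-DOA and HLA-DOB form the DO dimer that restrains this exchange, and HLA-DOA rose by 0.89 and HLA-DOB fell by 0.31. The protease CTSH (cathepsin H) went from 8.63, 8.29 and 8.41 to 9.36, 9.46 and 9.31, with 0.94 ± 0.07 (adjusted p = 5.67e-07 from limma). CD74, the invariant chain, had batch differences of 0.26, 0.45 and 0.01 and did not pass with all arrays (adjusted p = 0.0568 from limma), but passed without batch 3 and without the CD40L or the control array of batch 3. The calls of HLA-DOB and of SPPL2A, a protease that cleaves CD74, were lost in some of the 9 fits. Of the class II list 7 genes were higher and 1 lower after LPS, on the same control arrays. The direct contrast of both stimuli had 5 higher and 0 lower after CD40L. Of 11 butyrophilin genes, relatives of the costimulatory ligands that lie in part beside the MHC, BTN2A2 was the 1 that was higher, and BTNL9 fell by 0.33, a call lost without the batch term (adjusted p = 0.14 from limma) and with batch as a random effect (adjusted p = 0.0869). BTN2A1, the neighbour of BTN2A2, had 0.13 at its brightest probe set (adjusted p = 0.346 from limma), while 2 of its 4 probe sets were higher. The butyrophilin list thus had 9.1% of its genes higher and 9.1% lower, with 1 gene each way.

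Of the germinal centre programme 29 genes were measured, and 2 were higher and 9 lower, with a median change of −0.065, and 9 of the 11 calls were kept in all 9 fits that left out a batch or an array. After LPS, on the same control arrays, 1 was higher and 10 were lower, with a median of −0.059 against 0.002 over all genes. In the direct contrast of both stimuli 1 was higher and 2 were lower after CD40L. BCL6, the repressor that maintains the germinal centre state, went from 11.23, 11.21 and 11.38 to 10.77, 10.83 and 10.80. IRF8, a transcription factor of germinal centre B cells, went from 10.92, 11.11 and 11.11 to 10.19, 10.05 and 10.13. Neither gene overlapped between groups, and the adjusted p-values from limma were 0.00021 and 5.67e-07. STAP1, an adaptor below the B cell receptor, fell by 0.68, CD38, a surface enzyme of germinal centre cells, by 0.65, MYBL1, a MYB factor of dividing germinal centre cells, by 0.62, and GCSAM, which slows the motility of these cells, by 0.46. EBF1, a factor of B cell identity, fell by 0.43, a call lost without batch 1 and without batch 3. The ETS factor SPIB rose by 0.56 and the adaptor KLHL6 by 0.30, the latter call being lost in 5 of the 9 fits. FOXO1 and PAX5 had batch differences of −0.11, 0.84 and −0.09 and of 0.13, 0.99 and 0.05, large in batch 2 alone, and did not pass with all arrays (adjusted p = 0.555 and 0.107 from limma). Without the control array of batch 3, PAX5 had 0.56 and passed (adjusted p = 0.0189 from limma).

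The plasma cell programme had 4 higher and 2 lower of 22 measured genes. Besides ELL2, which is used for antibody mRNA processing in secreting cells, IRF4, a factor needed both in germinal centre formation and in plasma cells, went from 10.44, 9.99 and 10.30 to 10.80, 10.67 and 10.63 (0.46 ± 0.08, adjusted p = 0.00176 from limma). The other probe sets of IRF4 had 0.22 and −0.03 and did not pass (adjusted p = 0.0579 and 0.896 from limma). PRDX4 and MANF, proteins of the endoplasmic reticulum, rose by 0.32 and 0.31. PRDM1 and XBP1, the factors that drive secretion, had 0.02 and −0.18 at their brightest probe sets and did not pass (adjusted p = 0.948 and 0.0899 from limma). Of the 3 probe sets of PRDM1, 1 was higher, by 0.23 (adjusted p = 0.0399 from limma). CD27, a TNF receptor of memory and plasma cells, went from 9.23, 9.30 and 9.04 to 8.48, 8.79 and 8.55 without overlap, and the kinase PIM2 fell by 0.35. The calls of PRDX4, MANF and PIM2 were not kept in all 9 fits, and the number of higher members was 2 without batch 1 or the CD40L array of batch 2.

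The B cell receptor and B cell surface list had 6 higher and 15 lower of 41 measured genes, with a median change of −0.073, and 14 of the 21 calls were kept in all 9 fits that left out a batch or an array. After LPS, on the same control arrays, 3 were higher and 9 were lower, with a median of −0.066. In the direct contrast of both stimuli 3 were higher and 0 were lower after CD40L. CD79A, a signalling chain of the receptor, went from 10.70, 10.70 and 10.79 to 10.23, 10.28 and 10.34, a fall of similar size in each batch (−0.47, −0.42 and −0.44). CD22, an inhibitory coreceptor, fell by 0.46, FCGR2B, the inhibitory Fc receptor, by 0.53, VPREB3, a chaperone-like protein of immunoglobulin assembly, by 0.59, and the phosphatase PTPRC (CD45) by 0.64. PLCG2, the phospholipase C below the receptor, fell by 0.33 at its brightest probe set. No other probe set of PLCG2 passed, and its next brightest had 0.01 (adjusted p = 0.959 from limma). CD79B, the partner of CD79A, and the kinase BLK fell by 0.34 and 0.39, so that 4 of the 6 B cell markers were lower, and the log2 of the summed levels of all 6 was 13.75 to 13.89 on the control and 13.71 on the CD40L arrays. MS4A1, the CD20 antigen, had −0.04 (adjusted p = 0.883 from limma) and its CD40L arrays, at 13.02, 13.00 and 13.03, lay within the control range. VAV2, an exchange factor below the receptor, NFATC2, a calcium-dependent transcription factor, and RASGRP3, a Ras activator, rose by 0.83, 0.61 and 0.44. The probe set named for IGLL1 rose by 0.76, and it may also detect transcripts of the closely similar λ light chain genes.

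**Figure D3:**
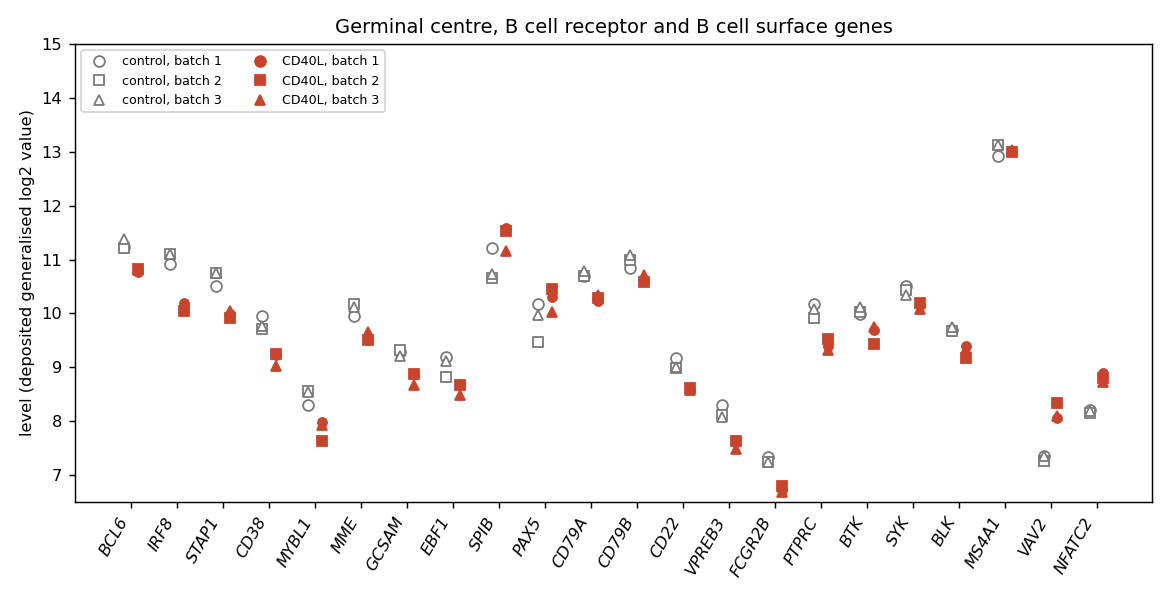
Levels on each array (generalised log2 scale) of 22 genes of the germinal centre, B cell receptor and B cell surface lists, with open symbols for control and filled symbols for CD40L arrays and a shape for each batch. BCL6, IRF8, CD79A, CD22 and FCGR2B are lower on every CD40L array than on any control array, and MS4A1 and PAX5 overlap.

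Inhibitors of DNA binding, with genes of the BMP and SMAD pathways from which they take their signal, had 3 higher and 10 lower of 37 measured genes. All 4 inhibitors of DNA binding fell. ID3, a tumour suppressor of Burkitt lymphoma, went from 11.45, 11.46 and 11.61 to 10.62, 10.41 and 10.54 and ID4 from 9.81, 9.68 and 9.37 to 8.79, 8.93 and 8.63, and ID2 had batch differences of −0.60, −0.21 and −0.80 (adjusted p = 0.000725 from limma). SMAD1 fell by 1.13 at its brightest probe set. SMAD6, an inhibitory SMAD, fell by 0.25, while SMAD7, the other inhibitory SMAD, had 0.20 and did not pass (adjusted p = 0.231 from limma). BMP2K, a kinase named for its induction by BMP2, and the ligand BMP6 rose by 0.82 and 0.37. The ligand BMP7 fell, and its call was kept in all 9 fits that left out a batch or an array. TGFBR3, a coreceptor of TGFβ, had 0.23, which like the call of SMAD6 was lost in some of the 9 fits. The number of lower members was 6 without batch 1 or batch 3. After LPS, on the same control arrays, 1 member was higher and 7 were lower. In the direct contrast of both stimuli 1 was higher and 1 lower after CD40L.

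Cytokine receptors and STAT pathway genes had 13 higher and 3 lower of 55 measured genes, and 9 of the 16 calls were kept in all 9 fits that left out a batch or an array. CSF2RB, the common β chain of the IL3, IL5 and GM-CSF receptors, rose by 0.71, JAK3 by 0.61 and IL6ST, the gp130 chain, by 0.58. IL2RG, the common γ chain through which IL4 and IL21 signal in B cells, went from 8.74, 8.50 and 8.46 to 9.11, 9.12 and 8.91, with 0.48 ± 0.06 (adjusted p = 0.00013 from limma). IL21R, which pairs with it, had 0.14 (adjusted p = 0.279 from limma). IL7R fell by 0.49, IL4R by 0.36 and IL2RA by 0.24, and the calls of IL4R and IL2RA were not kept throughout. Lower members numbered 1 without batch 1 or the CD40L array of batch 2.

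Chemokines and homing receptors gave 5 higher and 1 lower of 36 measured genes. CCR7, which guides B cells to the T cell zone, went from 7.54, 7.99 and 7.31 to 7.95, 8.19 and 8.0. The groups overlapped, since the control array of batch 2 lay above the CD40L array of batch 1, and the batch differences were 0.41, 0.20 and 0.68 (adjusted p = 0.00189 from limma, lost without batch 3). CXCL10, a chemokine for activated T cells, rose by 0.38 from a level below the array medians, 6.17, 6.34 and 6.27 on the control arrays. P2RY10, a receptor of lysophospholipids, rose by 0.37, and ACKR3, a scavenger of CXCL12, fell by 0.43. CCL5 had 0.13 at its brightest probe set and did not pass (adjusted p = 0.377 from limma), while the dimmest of its 3 probe sets was higher by 0.27 (adjusted p = 0.0172). Higher genes numbered 2 without batch 1 or batch 3 and 3 without the CD40L array of batch 3, and the calls of CCR7, P2RY10 and CCL17 were among those not kept in all 9 fits.

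Adhesion and migration genes numbered 7 higher and 4 lower of 40. After CD58 and ICAM1 followed ALCAM, a ligand of CD6 on T cells, which went from 8.09, 8.17 and 8.18 to 8.87, 8.90 and 8.99, and the tetraspanin TSPAN33 with 0.47. PECAM1 and ICAM2, adhesion molecules shared with endothelium, fell by 0.52 and 0.52, the shedding protease ADAM17 by 0.41 and the integrin chain ITGB1 by 0.20. The call of ITGB1 was lost in each of the 9 fits that left out a batch or an array. CD44, the hyaluronan receptor, had −0.11 at a level around the array medians (adjusted p = 0.558 from limma).

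Costimulatory molecules and members of the TNF superfamily gave 4 higher and 4 lower of 40. TNFSF4, the OX40 ligand, rose by 0.72, TNFRSF18 (GITR) by 0.61, lymphotoxin α (LTA) by 0.30 and CD70, the ligand of CD27, by 0.27. CD86, a ligand of CD28, went from 8.54, 8.60 and 8.49 to 7.87, 7.92 and 7.90, and all 3 of its probe sets fell. CD80, the other ligand of CD28, had 0.27 with batch differences of 0.61, 0.07 and 0.15 and did not pass at its brightest probe set (adjusted p = 0.0746 from limma), while 1 of its 3 probe sets was higher. Without batch 2, or without its control array, the brightest probe set of CD80 also passed, with 0.38 and 0.37. TNFSF8, the CD30 ligand, fell by 0.29. CD274 (PD-L1) and the BAFF receptors TNFRSF13B and TNFRSF13C had −0.05, 0.19 and 0.04 and did not pass (adjusted p = 0.814, 0.0934 and 0.86 from limma). TNFRSF13B had 0.25 and passed without the CD40L array of batch 3 (adjusted p = 0.0484 from limma). The calls of LTA, CD70 and TNFSF8 were not kept in all 9 fits, and the number of higher genes was 2 without batch 1 or the CD40L array of batch 1. In the SLAM family, receptors that bind their own kind between B and T cells, SLAMF6 and CD48 fell by 0.49 and 0.34 and CD84 had 0.23, among 11 genes. LY9 (SLAMF3) had batch differences of −0.51, −0.07 and −0.13 at its brightest probe set (adjusted p = 0.0801 from limma). Its other 2 probe sets fell by 0.32 and 0.35 (adjusted p = 0.00361 and 0.00145 from limma), and the brightest passed after quantile normalization, without batch 2 and without the control array of batch 2. The calls of CD48 and CD84 were not kept in all 9 fits.

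Survival and death genes moved both ways. Of 23 BCL2 family genes 2 were higher (8.7%), the proapoptotic BID (0.51) and BCL2A1, and 4 lower (17.4%). The latter were BNIP3 and BNIP3L, mitophagy receptors that respond to hypoxia, with −0.78 and −0.65, the survival gene MCL1 with −0.31 and the BH3-only gene HRK with −0.25. No other probe set of MCL1 passed, and its next brightest had −0.11 (adjusted p = 0.553 from limma). BCL2, BCL2L1 and BCL2L11 (BIM) had 0.24, 0.06 and −0.20 at their brightest probe sets and did not pass (adjusted p = 0.0601, 0.764 and 0.0543 from limma). Of the 7 probe sets of BCL2L11, 1 was lower, by 0.34 on the log2 scale (adjusted p = 0.0219 from limma). The brightest one passed after quantile normalization (−0.26, adjusted p = 0.00652), without batch 2 and without the control array of batch 2, and that of BCL2 passed without batch 2 or its control array. The number of lower members was 1 without batch 3, BNIP3 being the one left. Of 27 death receptor and caspase genes FAS and CFLAR were the 2 higher ones, and APAF1, the scaffold of the apoptosome, fell by 0.31, a call not kept in all 9 fits. The shares of this list, 7.4% higher and 3.7% lower, were near the 5.03% and 2.92% over all genes.

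Interferon regulatory factors, 11 genes measured, had 3 higher and 2 lower. IRF4 rose and IRF8 fell as given above. IRF5 and the corepressor IRF2BP2 had 0.31 and 0.58, calls that were not kept in all 9 fits, and IRF2BPL fell by 0.49. Higher members numbered 1 without batch 3 or the CD40L array of batch 2. IRF1 and IRF2 had 0.23 and 0.11 (adjusted p = 0.0878 and 0.586 from limma). Interferon-stimulated genes gave 4 higher and 9 lower of 55, with a median change of 0.012. IFIH1 (MDA5), a sensor of viral RNA, went from 7.61, 7.65 and 7.44 to 8.64, 8.56 and 8.47, with 0.99 ± 0.06 (adjusted p = 4.42e-08 from limma). The groups were apart, but 1 of its 3 probe sets carried this call. The ADP-ribosyltransferases PARP14 and PARP12 had 0.33 and 0.33 and the antiviral GTPase MX1 0.25, calls that were not kept in all 9 fits. TRIM22 fell by 0.61, IFITM1 by 0.49, SP140 by 0.46 and OAS1 by 0.43, and these 4 calls were kept. The number of higher interferon-stimulated genes was 2 without batch 1, batch 2, batch 3 or the CD40L array of batch 2.

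Transcription factors outside these families also changed. Among AP-1, CREB and EGR factors 4 were higher and 3 lower of 28. After BATF came CREM, a factor of the cAMP response, with 0.77, IER5 with 0.62 and the stress factor ATF5 with 0.55. CREM was higher at 1 of its 6 probe sets. CREB5, JUND and IER2 fell by 0.61, 0.49 and 0.38, and BATF3 had 0.01 (adjusted p = 0.974 from limma). Of 52 repressors and lineage factors 8 were higher and 5 lower. RUNX3 had batch differences of 0.81, 1.42 and 0.57, ZEB2, a zinc finger repressor, rose by 0.51, its relative ZEB1 by 0.43 and the lymphoid factor IKZF1 (Ikaros) by 0.46. SATB1, an organiser of chromatin loops, went from 7.53, 7.53 and 7.17 to 6.83, 6.67 and 6.54. IKZF2, SOX11 and the corepressor TLE3 fell by 0.45, 0.42 and 0.38. The call of TLE3 was lost without batch 1 and that of JUND without batch 3. Lower AP-1, CREB and EGR factors numbered 5 without the control array of batch 2, and lower repressors and lineage factors 3 without batch 1 and 9 without batch 2.

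Genes of PI3K, AKT and mTOR signalling gave 5 higher and 6 lower of 47. PIK3CD, the catalytic subunit p110δ of lymphocytes, went from 9.73, 9.68 and 9.76 to 10.56, 10.52 and 10.67, a rise of 0.84, 0.84 and 0.91 in the batches. SGK1, a kinase related to AKT, had 0.14, 0.71 and 0.96, INPP5D (SHIP1), a phosphatase that opposes PI3K, rose by 0.50 and PRR5, a subunit of mTORC2, by 0.26. FOXO3 fell by 0.34, next to DEPTOR and CAB39L. DDIT4, an inhibitor of mTORC1 that responds to hypoxia, had 8.89, 10.61 and 10.03 on the control arrays and 8.95, 9.58 and 8.88 on the CD40L arrays. These groups overlapped, and the batch differences were 0.07, −1.03 and −1.16. The calls of SGK1, PRR5, FOXO3 and DDIT4 were not kept in all 9 fits. Higher members numbered 2 without batch 3 or the CD40L array of batch 3 and 3 without batch 2, the CD40L array of batch 2 or the control array of batch 2, and lower ones 3 without batch 1, batch 3, the CD40L array of batch 2, the CD40L array of batch 3 or the control array of batch 1.

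Glycolysis and hypoxia-inducible genes had 1 higher and 13 lower of 39, with a median change of −0.085. After LPS, on the same control arrays, 1 was higher and 12 were lower, with a median of −0.105 against 0.002 over all genes. In the direct contrast of both stimuli 1 was higher and 0 were lower after CD40L. PFKFB4, which regulates glycolysis, went from 7.15, 7.92 and 7.52 to 6.85, 6.91 and 6.75, and KDM3A, a histone demethylase, from 8.71, 9.40 and 8.98 to 8.26, 8.54 and 8.25. In both genes the control array of batch 1 was lowest of the controls, and the difference was smallest in batch 1. BNIP3 and DDIT4 belong to this list too. LOXL2, a collagen crosslinking oxidase, was the member that rose (0.83). The number of lower members was 6 without batch 3, and 6 without the batch term.

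Wnt pathway genes numbered 5 higher and 7 lower of 53, of which 4 calls were kept in all 9 fits. WNT5A, a ligand of the noncanonical branch, went from 7.77, 7.70 and 7.60 to 8.58, 8.77 and 8.46, and WNT5B rose by 0.48. The coreceptors KREMEN2 and LRP5 had 0.32 and 0.27, calls not kept throughout. LRP4 fell by 0.65, DAAM1, an actin regulator below Wnt receptors, by 0.50, and the secreted antagonist FRZB and the ligand WNT10A by 0.38 and 0.37, both calls being lost in some fits. Higher members numbered 2 without batch 1 and 3 without batch 2, the CD40L array of batch 1, the CD40L array of batch 2 or the CD40L array of batch 3, and lower ones 3 without batch 1 and 4 without batch 3.

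Of 57 actin cytoskeleton genes 8 were higher and 1 lower. CLIP2, a linker at microtubule ends, went from 6.41, 6.36 and 6.28 to 7.17, 7.04 and 7.0, the actin bundler LCP1 rose by 0.41 and the formin FMNL3 by 0.36. WASF3, which activates actin branching, fell by 0.66. The number of higher actin genes was 3 without batch 1 and 4 without the CD40L array of batch 2. RGS and G protein genes gave 3 higher (8.8%) and 3 lower (8.8%) of 34. RGS10, GRK2 and GNA15 had 0.40, 0.36 and 0.35, and RGS3 and GNG7 fell by 0.36 and 0.36 next to RGS18. The calls of FMNL3, GRK2 and GNG7 were not kept in all 9 fits.

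MYC, which is driven by a translocation in Burkitt lymphoma, had 12.52, 12.69 and 12.88 on the control arrays and 12.74, 12.65 and 12.81 on the CD40L arrays (0.03 ± 0.06, adjusted p = 0.891 from limma). These levels overlapped. Of 33 MYC network and ribosome biogenesis genes 6 were higher and 2 lower. The nucleolar proteins LYAR, NOP2 and RRP9 had 0.48, 0.41 and 0.30 and the polymerase I subunit POLR1B 0.32, and the MYC antagonists MXI1 and MXD3 fell by 0.46 and 0.31. The number of higher members was 3 without batch 2 or the CD40L array of batch 2. Of 57 cell cycle genes 3 were higher (CDC25A 0.33, MCM7 0.27 and MCM3 0.24) and 2 lower (KIF20A −0.30 and CDC25C −0.24), shares close to those over all genes, and none of these calls was kept in all 9 fits. Of 26 p53 target genes FAS was higher and 4 were lower, TP53INP1 by 0.78, RRM2B by 0.35, GADD45A by 0.28 and XPC by 0.22, of which that of TP53INP1 was kept in all 9 fits. Lower p53 target genes numbered 1 without batch 1, batch 3, the CD40L array of batch 1 or the CD40L array of batch 3 and 2 without the control array of batch 1. The unfolded protein response had 6 higher and 2 lower of 29. Its chaperones HSP90B1, HYOU1, PDIA6 and HSPA5 rose by 0.60, 0.50, 0.46 and 0.40, calls kept in all 9 fits, and EDEM1 and the stress sensor EIF2AK3 fell by 0.33 and 0.29, calls that were not.

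Cathepsins and lysosomal genes gave 5 higher and 3 lower of 41, with CTSH followed by TFEB, the regulator of lysosome genes (0.43), cathepsin C (CTSC, 0.33, with 1 of its 4 probe sets higher and 1 lower) and progranulin (GRN, 0.32). CYBB and NCF1, subunits of the NADPH oxidase, fell by 0.50 and 0.25 and prosaposin (PSAP) by 0.47. Higher lysosomal genes numbered 3 without the CD40L array of batch 2. Dual specificity phosphatases, which switch MAP kinases off, gave 2 higher, DUSP22 (0.72) and DUSP7 (0.31), and 1 lower, DUSP10 (−0.38), of 23. Of 32 genes of cytidine deamination and repair APOBEC3G and SHLD2 had 0.33 and 0.23 and ATM, a kinase of the DNA damage response, fell by 0.35 next to HMCES. The shares higher and lower were 8.7% and 4.3% of the phosphatases and 6.2% and 6.2% of this list, beside 5.03% and 2.92% over all genes. The calls of TFEB, GRN, NCF1, DUSP7, APOBEC3G, SHLD2 and ATM were not kept in all 9 fits.

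**Figure D4:**
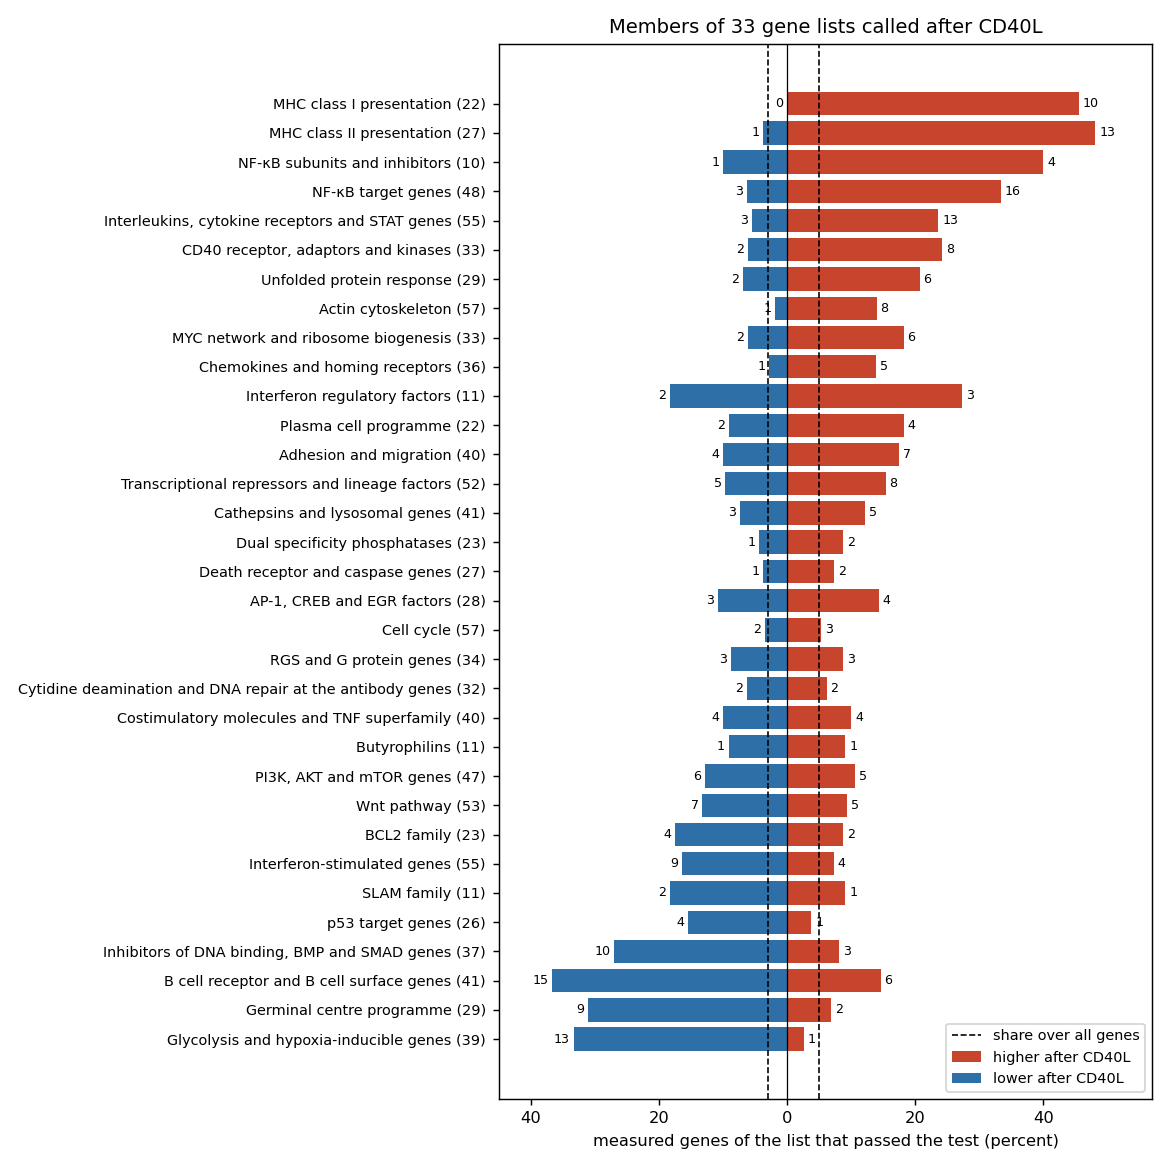
Share of the measured genes of 33 lists that were higher (right) or lower (left) after CD40L, in percent, with the number of genes at the bar ends, the number measured in parentheses and dashed lines at the shares over all genes (5.03% and 2.92%). Class I and class II presentation reach the farthest to the right, and the B cell receptor, glycolysis and germinal centre lists the farthest to the left.

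Which of these changes set CD40L apart from LPS was tested for single genes by the direct contrast of the CD40L and LPS arrays. The fold changes of both stimuli rest on the same control arrays, which the direct contrast leaves out. Of all genes 97 (0.491%) were higher and 30 (0.152%) lower after CD40L than after LPS. Among NF-κB factors NFKB2 had 1.01 after CD40L and 0.24 after LPS, a difference of 0.77 (adjusted p = 1.57e-05 from limma), and MAP3K14 had 0.64 and 0.03 (difference 0.61, adjusted p = 0.000628). RELB and IKBKE, in contrast, had differences of 0.09 and −0.01 (adjusted p = 0.999 and 0.999 from limma). CD83 had −1.02 after CD40L and −0.04 after LPS (difference −0.98, adjusted p = 3.33e-06 from limma) and CD27 −0.59 and −0.11 (difference −0.48, adjusted p = 0.00261). IL2RG differed by 0.52 (adjusted p = 0.000503 from limma), CCR7, with −0.17 after LPS, by 0.60 (adjusted p = 0.000722), CFLAR by 0.58 (adjusted p = 0.00136) and FAS by 0.52 (adjusted p = 0.000745). Differences were also found for CTSH (0.69), IFIH1 (0.66), WNT5A (0.61), ALCAM (0.57), CLIP2 (0.53) and PIK3CD (0.51), with adjusted p-values of at most 0.000341 from limma. SGK1 differed by 0.60 (adjusted p = 0.0227 from limma) and IER3 by −0.51 (adjusted p = 0.00856). IFIT3, an interferon-induced gene, had 0.17 after CD40L and 1.05 after LPS and was lower after CD40L (difference −0.89, adjusted p = 1e-05 from limma). ID1 had −2.01 and −1.90 and ID3 −0.98 and −0.81, and BNIP3 had −0.78 and −0.78. These 3 genes did not differ beyond the spread in the direct contrast (adjusted p = 0.999, 0.944 and 0.999 from limma), which does not show that the stimuli act alike.

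**Figure D5:**
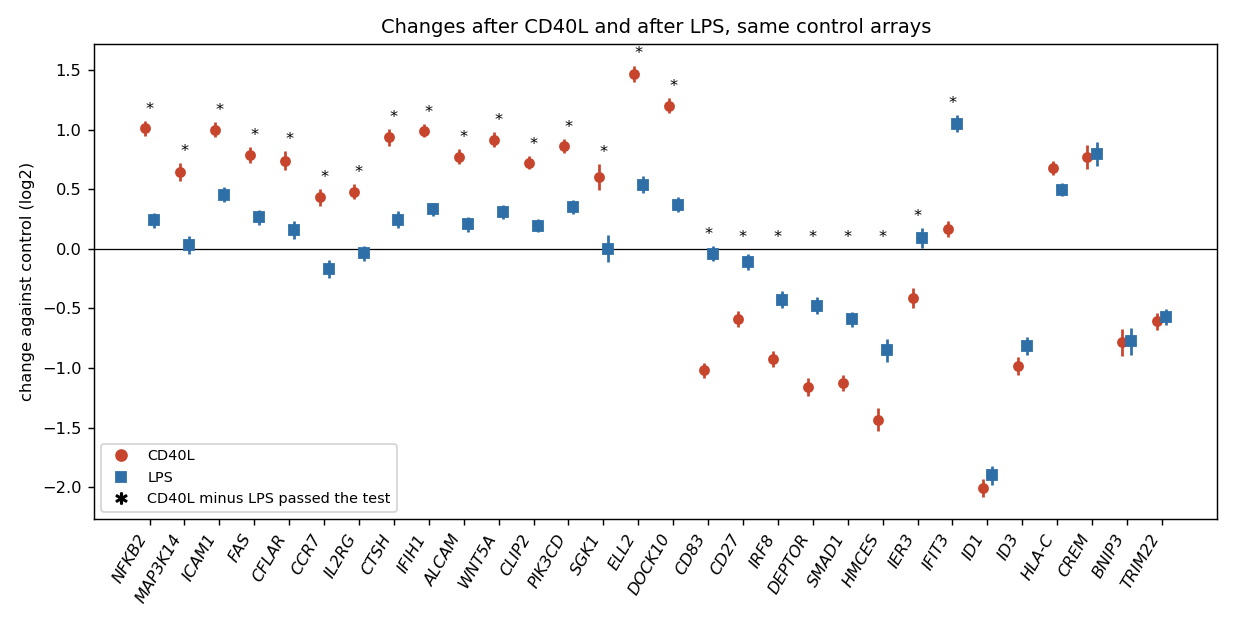
Fitted change against the same control arrays (log2, ± standard error) after CD40L (circles) and after LPS (squares) for 30 genes, with an asterisk where the direct contrast passed the test. NFKB2, MAP3K14, IL2RG and CD83 changed after CD40L and have values of at most 0.24 in size after LPS, while ID1, ID3 and BNIP3 had similar values after both. CREM had similar values at the probe set shown, its brightest. Another probe set of CREM had 0.05 after CD40L and 0.33 after LPS and passed the direct contrast (−0.28, adjusted p = 0.0473 from limma).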

How the data were processed

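Biotin-labelled RNA of BL2 cells was hybridised to HG-U133 Plus 2.0 arrays. The deposited values are log2 levels that the authors normalised with vsn and summarised by median polish, in a generalised log2 scale. Samples were grouped by the labels, and the replicate number is the batch in the sample titles. The 62 AFFX probe sets were left out, and 54613 were fitted in limma 3.58.1 (R 4.3.3, statmod 1.5.0) over 9 arrays with condition and batch as fixed terms, 4 residual and 11.6 prior degrees of freedom. Deviations of control and CD40L arrays of a batch from their group means correlated at 0.287, −0.181 and 0.184. The fit was tested on simulated data. Of the probe sets 41091 name 1 gene, 1801 several and 11721 none in the platform annotation, and only the first were used for genes. Named are the 15 largest rises and 15 largest falls of the same direction in all batches, up to 4 rises and 4 falls of each gene list, and key genes of the lists whatever their value; 1 list is not reported here, which leaves 33. Members and lists were chosen with earlier results of these data known. The replicates are independent experiments on 1 cell line, as the study describes them. Listed genes with no probe set of 1 gene were not analysed here. Promoters came from RefSeq on GRCh38.p14. Alternatives changed the batch term, arrays, scaling, filter, variance prior and replicates.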

Additional observations from a re-analysis of the deposited data

How the results depend on the processing

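The fit over 54613 probe sets gave 2027 higher and 1022 lower. Without the replicate block the counts were 884 and 562, with the block as a random effect 1112 and 677, and with the arrays of the compared groups alone 1122 and 676. Quantile normalization gave 1694 lower probe sets and 1707 higher. The fits that left out a batch or an array gave 812 to 2517 higher and 449 to 1332 lower probe sets. The fewest higher were found without the CD40L array of batch 2 and the fewest lower without batch 1. The other alternatives, namely median centring, brighter probe sets alone, AFFX probe sets kept and an intensity trend with a robust prior, left both counts within 1.5 times. Over the named genes, no fold change that had passed turned its direction under any alternative, 3966 values kept their side of the threshold, 393 lost it and 20 gained it. The cause of these shifts was not tested. Where an array was left out, its group kept 2 arrays and the spread was shared over all groups. Dim probe sets limit the data, since the generalised log2 scale flattens their differences.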
